A study of Mus musculus with 19 samples.

Results

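A set of 10 genes of the activator protein 1 (AP-1) and immediate-early response were followed in sorted lymph node regulatory T cells (Tregs) after burn injury. The table of counts gives them in capitals as FOS, FOSB, FOSL2, JUN, JUNB, JUND, DUSP1, ZFP36, PPP1R15A and IER2, and mouse spelling is used from here on. They are 10 of the 24982 genes in the table, and all 10 were among the 11464 genes with enough counts to be tested. The genes were selected on earlier results of these same counts, and which comparison chose them is not recorded. Levels and fold changes of the 10 genes are therefore given as a description. Calls by a test are printed for them beside the share of all genes, but the number of them past a threshold supports nothing about them.

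The cells were CD4+FoxP3-GFP+ Tregs of Foxp3DTR mice, a strain in which the *Foxp3* locus also drives a diphtheria toxin receptor and GFP, so all groups carried that allele. Adult mice, matched for age and sex, received either a burn of the back in hot water or the same procedure in room temperature water, and lymph nodes draining the site were taken 7 days later. Tregs were sorted as CD44high or CD44low, where CD44 marks antigen-experienced T cells. The 19 libraries fell into 4 groups, namely uninjured CD44high (n = 4), uninjured CD44low (n = 5), injured CD44high (n = 4) and injured CD44low (n = 6). The sources used here do not say whether a library came from 1 mouse or from pooled mice, so the spread between libraries may be partly technical.

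Of the 6 injured CD44low libraries, 3 were labelled 1, 2 and 5, and 3 carried a second number in the label, as 1_2, 4_2 and 5_2. No source used here gives the meaning of the second number, and no library of the other groups had one. The 3 libraries with a second number stood apart from the other 3 in most of the 10 genes, so fold changes of the 10 genes in injured CD44low Tregs are given for the whole group and for each set. Totals ran from 5582234 to 9433610 counts per library. Levels are given as CPM, counts scaled to a common library total with TMM factors, and log2 fold changes carry their standard error (SE). The sort markers went with the labels: *Cd44* ran from 369 to 626 CPM over the CD44high libraries and from 102 to 156 CPM over the CD44low libraries. Summed CPM of 6 Treg markers ran from 3854 to 4411 over all 19 libraries. The library amplifies RNA from a fixed number of cells, and in such bulk samples fewer expressing cells and less RNA per cell cannot be told apart.

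AP-1 is a dimer of a Jun protein (Jun, Junb, Jund) with another Jun protein or a Fos protein (Fos, Fosb, Fosl2), and it binds DNA at the sequence TGANTCA. Most of these genes are immediate-early genes: their transcription starts within minutes of a receptor signal, without new protein synthesis, through factors such as SRF and CREB, and their transcripts are short-lived. Feedback genes are induced beside them. *Dusp1* encodes a phosphatase of MAP kinases, *Zfp36* encodes tristetraprolin, which promotes decay of AU-rich transcripts, *Ppp1r15a* encodes GADD34, which brings a phosphatase to the translation factor eIF2alpha, and *Ier2* encodes a small nuclear protein. In T cells AP-1 cooperates with NFAT downstream of the T cell receptor.

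The promoters, where such factors can bind, are shown first. Whether their motifs go with the levels of the genes was not tested. RefSeq (build GRCm38.p6) gave a promoter for 9 of the 10 genes, and *Ier2* had none in that table. The 250 bases before the start of *Fos*, *Jun* and *Junb* hold no annotated exon. They are printed 5′ to 3′ on the strand of the gene, with capitals at the CREB-type core TGACG or, in *Jun*, at the site TGACATCA.
*Fos* (chr12:85473640-85473889, + strand): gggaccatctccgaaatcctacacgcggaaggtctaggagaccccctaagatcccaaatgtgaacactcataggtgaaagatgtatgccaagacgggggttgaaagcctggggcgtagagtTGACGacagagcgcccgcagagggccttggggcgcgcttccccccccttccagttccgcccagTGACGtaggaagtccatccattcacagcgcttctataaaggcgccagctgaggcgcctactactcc
*Jun* (chr4:95052223-95052472, - strand): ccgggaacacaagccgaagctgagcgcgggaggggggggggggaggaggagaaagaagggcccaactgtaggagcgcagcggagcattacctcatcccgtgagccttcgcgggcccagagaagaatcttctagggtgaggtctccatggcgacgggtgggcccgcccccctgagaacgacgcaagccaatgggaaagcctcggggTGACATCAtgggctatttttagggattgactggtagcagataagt
*Junb* (chr8:84978749-84978998, - strand): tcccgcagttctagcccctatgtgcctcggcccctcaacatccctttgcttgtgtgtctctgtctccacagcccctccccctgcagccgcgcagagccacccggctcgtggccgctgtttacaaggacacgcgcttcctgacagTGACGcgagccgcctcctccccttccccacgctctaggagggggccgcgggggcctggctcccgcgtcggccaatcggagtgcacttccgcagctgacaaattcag
The windows of *Fosb*, *Dusp1* and *Ppp1r15a* overlap an annotated exon, so 30 bases around a site are given, again with the site in capitals.
*Fosb* (chr7:19310087-19310116, - strand): ggagttgcgggTGACGcaagcgcgggggcg
*Dusp1* (chr17:26508597-26508626, - strand): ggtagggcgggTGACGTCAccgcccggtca
*Ppp1r15a* (chr7:45526269-45526298, - strand): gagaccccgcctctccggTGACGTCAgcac

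The core TGACG of the cyclic AMP response element, searched on both strands, was present before the start of *Fos*, *Fosb*, *Junb*, *Dusp1* and *Ppp1r15a*, 5 of 9 promoters, and of 17.8% of the 32851 promoters of that table. In *Fos* it began 129 and 66 bases before the start, and the motif TATAAA, searched on the gene's strand only, began 33 bases before it (7.59% of all promoters). The palindrome TGACGTCA, which contains the core on both strands, stood 143 bases before the start of *Dusp1* and 12 bases before that of *Ppp1r15a*, and in 1.55% of all promoters. *Jun* had TGACATCA 45 bases before its start (2.93% of all promoters, both strands). The AP-1 site TGANTCA was found in 0 of the 9 windows and in 6.75% of all promoters. A CArG box, the SRF site, lay 58 bases before the start of *Zfp36* (1.47% of all promoters), and CCAAT lay before *Jun* and *Junb* (33.8%). A match is a run of letters and not a measured binding site.

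**Figure D1:**
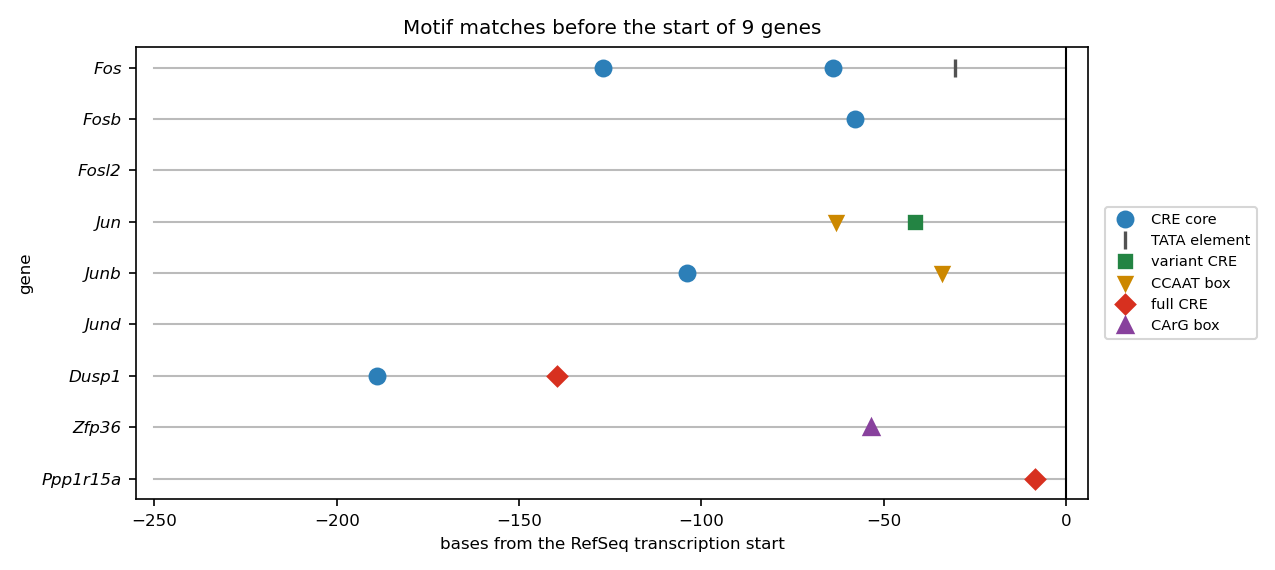
Positions of motif matches in the 250 bases before the RefSeq start of 9 genes (horizontal axis in bases, start at 0; 1 line per gene). CRE core is TGACG, full CRE is TGACGTCA and variant CRE is TGACATCA. The core lies before 5 genes, and *Fosl2* and *Jund* show none of the motifs searched.

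Per kilobase of exon, the 10 genes spanned a wide range. In uninjured CD44low Tregs *Junb* had 757 ± 153 CPM per kb (SD, n = 5), *Jund* 582 ± 28.6, *Dusp1* 203 ± 37.2 and *Ier2* 191 ± 20.5. *Zfp36* followed at 146 ± 20.0, *Jun* at 136 ± 14.1, *Fos* at 121 ± 34.3 and *Ppp1r15a* at 59.9 ± 11.04 CPM per kb. The ranges of *Dusp1* and *Ier2* overlapped, as did those of *Zfp36*, *Jun* and *Fos*. *Fosb* (0.437 ± 0.183 CPM per kb) and *Fosl2* (0.290 ± 0.0819) were nearly silent. Of the Fos and Jun genes listed, the transcripts in uninjured CD44low Tregs were thus mostly those of *Junb*, *Jund*, *Jun* and *Fos*. Other partners of AP-1, such as *Batf*, were not ranked here. In injured CD44high Tregs *Jund* (499 ± 39.3 CPM per kb, n = 4) stood above *Junb* (347 ± 52.8), and *Ier2* (165 ± 22.3) above *Zfp36* (108 ± 7.33) and *Dusp1* (105 ± 14.1). *Fos*, at 16.6 ± 4.42 CPM per kb, again stood beside *Jun* at 17.5 ± 1.77. *Jund*, *Zfp36* and *Ppp1r15a* overlap a gene of the opposite strand in the annotation, and no source used here says whether counting used strand.

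*Fos*, the inducible partner of the Jun proteins, had 338, 279, 271 and 567 CPM in the 4 uninjured CD44high libraries and 165, 316, 315, 189 and 288 CPM in the 5 uninjured CD44low libraries. In injured CD44high Tregs it had 48.7, 32.4, 29.5 and 29.1 CPM. In injured CD44low Tregs it had 13.5, 16.4 and 14.1 CPM in libraries 1, 2 and 5, and 141, 138 and 232 CPM in libraries 1_2, 4_2 and 5_2. All injured libraries without a second number were below all uninjured libraries, while the 3 with a second number lay near or within the uninjured range. *Fos* was 10.4-fold lower after injury in CD44high Tregs (log2 fold change −3.38 ± 0.66 SE). In CD44low Tregs it was 17.3-fold lower in the libraries without a second number (−4.11 ± 0.31) and 1.49-fold lower in those with one (−0.58 ± 0.25). Over all 6 injured CD44low libraries the log2 fold change was −1.47 ± 0.52. By mean, the order was uninjured CD44high, uninjured CD44low, injured CD44low with a second number, injured CD44high and injured CD44low without one, and only the first 3 of these overlapped their neighbour.

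*Jun*, the partner through which Fos proteins bind DNA, differed between the subsets as well. It had 133, 131, 113 and 185 CPM in uninjured CD44high Tregs and 380, 483, 428, 400 and 475 CPM in uninjured CD44low Tregs. After injury it had 60.7, 58.6, 56.4 and 47.8 CPM in CD44high Tregs. In injured CD44low Tregs it had 72.5, 109 and 115 CPM without a second number, and 232, 216 and 326 CPM with one. Every injured library was below every uninjured library of its subset, and of the 10 genes *Jun* alone did not overlap between all 6 injured and the uninjured CD44low libraries. The log2 fold change with injury was −1.33 ± 0.30 in CD44high Tregs and −1.28 ± 0.25 in CD44low Tregs. Within CD44low Tregs it was −2.13 ± 0.18 for the libraries without a second number and −0.75 ± 0.16 for those with one. CD44high Tregs had 3.08-fold less *Jun* than CD44low Tregs when uninjured (−1.62 ± 0.29) and 3.19-fold less when injured (−1.67 ± 0.28). Without the second-number libraries the injured value was −0.82.

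*Junb*, the most abundant of the 10 genes per kilobase in uninjured CD44low Tregs, had 1243, 1031, 1092 and 1139 CPM in uninjured and 769, 562, 575 and 608 CPM in injured CD44high Tregs. In CD44low Tregs it had 1279, 1767, 1532, 1182 and 1089 CPM when uninjured. After injury it had 423, 400 and 422 CPM in the libraries without a second number and 1137, 880 and 1087 CPM in those with one. The 3 low libraries differed little among themselves, and of the other 3 only library 1_2 lay within the uninjured range. The log2 fold change was −0.84 ± 0.27 in CD44high Tregs. It was −1.72 ± 0.14 and −0.40 ± 0.14 in the CD44low libraries without and with a second number, and −0.92 ± 0.23 over all 6.

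*Jund*, the Jun gene that is expressed constitutively in many cells, was nearly level. It ran from 774 to 1169 CPM over all 19 libraries, with a log2 fold change after injury of −0.35 ± 0.10 in CD44high Tregs, −0.10 ± 0.10 in CD44low libraries without a second number and −0.01 ± 0.10 in those with one. Over all 6 injured CD44low libraries it was −0.06 ± 0.09. In CD44high Tregs its injured libraries (774 to 911 CPM) were below the uninjured ones (990 to 1169 CPM). The difference between the sets of injured CD44low libraries, 0.09 ± 0.11, was within its error.

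*Fosb* and *Fosl2*, the remaining Fos genes, rested on few counts. *Fosb* had 11 to 24 counts per library in uninjured CD44high and 6 to 9 in injured CD44high Tregs, with group means of 2.73 ± 1.03 and 0.993 ± 0.256 CPM (SD). In CD44low Tregs it had 5 to 16 counts when uninjured, then 0, 3 and 3 counts without a second number and 4, 3 and 16 with one. *Fosl2* had 3 to 24 counts per library, and its injured and uninjured libraries overlapped in both subsets. The log2 fold change of *Fosl2* with injury was 0.25 ± 0.53 in CD44high and −0.93 ± 0.48 in CD44low Tregs, and −1.36 ± 0.61 and −0.58 ± 0.58 in the libraries without and with a second number. For *Fosb* it was −1.45 ± 0.62 in CD44high Tregs, −1.14 ± 0.57 over all 6 injured CD44low libraries, −2.51 ± 0.73 without a second number and −0.41 ± 0.60 with one.

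*Dusp1* had 707, 548, 663 and 969 CPM in uninjured and 293, 241, 247 and 212 CPM in injured CD44high Tregs. Uninjured CD44low Tregs had 390, 573, 578, 423 and 442 CPM. After injury it had 208, 206 and 212 CPM without a second number and 428, 415 and 598 CPM with one. The first set was thus uniformly low, and the second set overlapped uninjured Tregs (log2 fold change 0.00 ± 0.16). The fold change was −1.54 ± 0.27 in CD44high Tregs and −1.21 ± 0.17 in the CD44low libraries without a second number, on the log2 scale. Over all 6 injured CD44low libraries it was −0.48 ± 0.23.

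*Zfp36* was the feedback gene with the least spread in uninjured CD44high Tregs, at 882, 809, 773 and 843 CPM, and it had 404, 362, 346 and 384 CPM in the injured ones. In CD44low Tregs it had 417, 585, 565, 492 and 468 CPM when uninjured, 306, 357 and 290 CPM when injured without a second number, and 470, 473 and 525 CPM with one. Uninjured CD44high libraries were above all others, by a log2 difference of 0.71 ± 0.14 over uninjured CD44low Tregs. After injury the difference was −0.11 ± 0.14 over all libraries and 0.23 without those with a second number, so its direction rests on the libraries used. The log2 fold change with injury was −1.15 ± 0.15 in CD44high Tregs, −0.67 ± 0.11 in CD44low libraries without a second number and −0.05 ± 0.11 in those with one. Over all 6 injured CD44low libraries it was −0.33 ± 0.13.

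*Ppp1r15a*, like *Jun*, was higher in CD44low than in CD44high Tregs when uninjured. It had 88.6, 67.7, 80.7 and 105 CPM in uninjured and 51.7, 31.1, 34.3 and 32.4 CPM in injured CD44high Tregs. In CD44low Tregs it had 169, 227, 187, 144 and 154 CPM when uninjured, 39.6, 50.4 and 43.5 CPM when injured without a second number, and 125, 127 and 171 CPM with one. The log2 fold change with injury was −1.20 ± 0.34 in CD44high Tregs, −1.98 ± 0.19 in CD44low libraries without a second number and −0.32 ± 0.18 in those with one. Over all 6 injured CD44low libraries it was −0.93 ± 0.28. Injured CD44high libraries overlapped the injured CD44low libraries without a second number, and lay below those with one. *Ier2* was level, from 224 to 397 CPM over all libraries, and its log2 fold change was −0.12 ± 0.12 in CD44high Tregs and 0.10 ± 0.11 in CD44low Tregs, or 0.06 ± 0.13 without and 0.15 ± 0.12 with a second number.

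**Figure D2:**
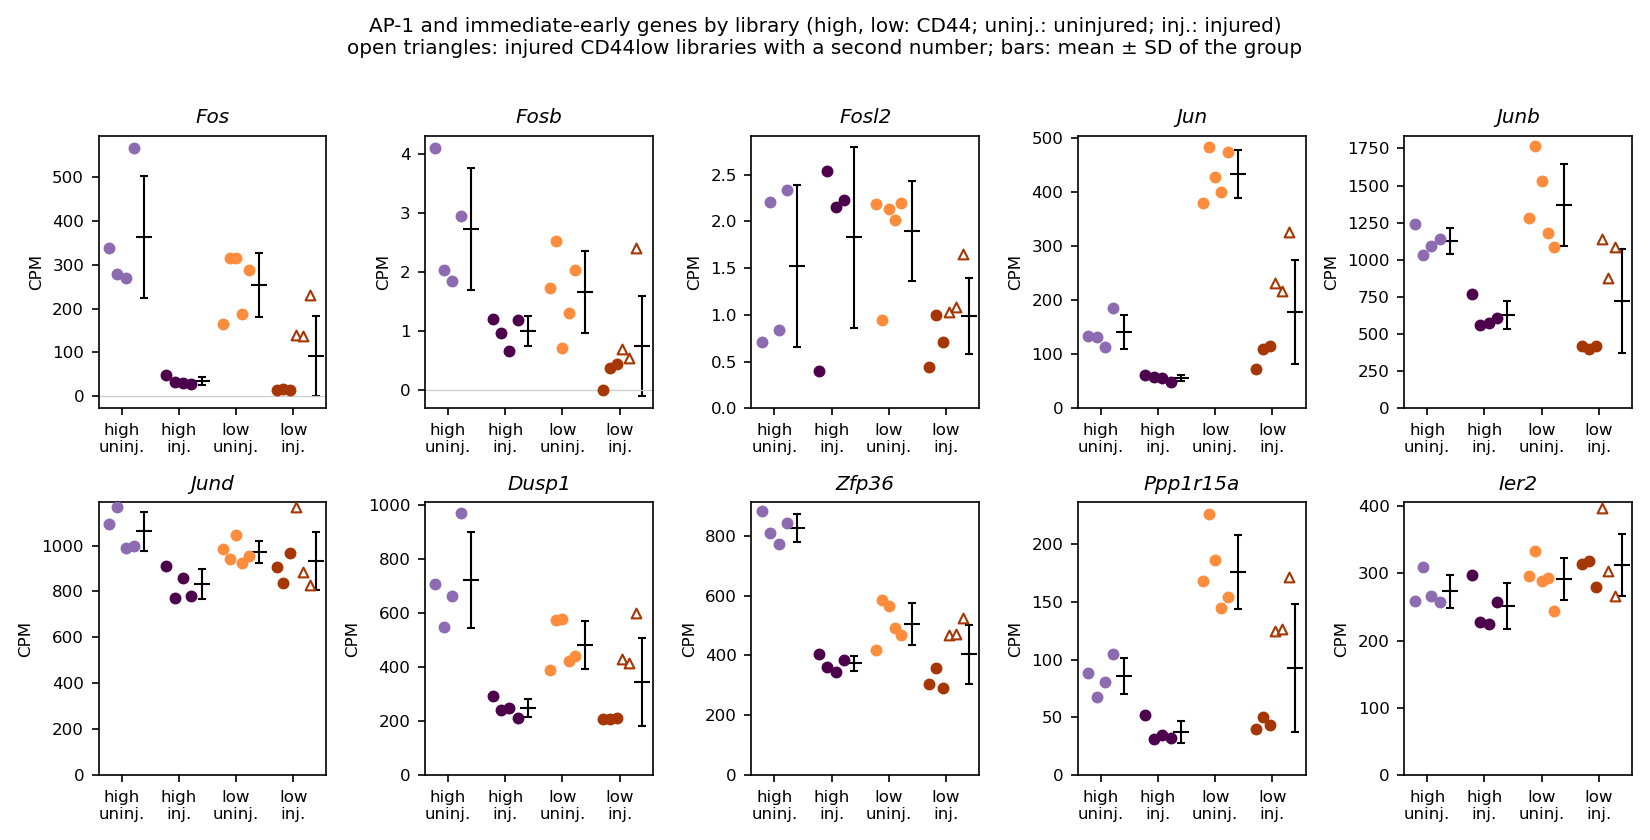
CPM (vertical axis, linear, a separate scale for each gene) of the 10 genes in 19 libraries, grouped by CD44 sort and injury; points are libraries, open triangles are injured CD44low libraries with a second number, and bars are mean ± SD of the whole group. For *Fos* the triangles lie at 138 to 232 CPM and the filled injured CD44low points at 13.5 to 16.4 CPM, while *Jund* and *Ier2* show no such division.

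Summed over the 10 genes, the level was 4051 to 5228 CPM in the 9 uninjured libraries and 2292 to 2836 CPM in the 4 injured CD44high libraries. It was 2282 to 2344 CPM in the injured CD44low libraries without a second number and 3439 to 4100 CPM in those with one. Injured CD44high libraries and injured CD44low libraries without a second number thus occupied a similar range.

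With injury in CD44high Tregs, edgeR's quasi-likelihood test called 4 of the 10 genes lower at an adjusted p under 0.05 (*Fos*, *Jun*, *Dusp1*, *Zfp36*), where 1.33% of all genes tested were called lower and 1.06% higher. In 8 of the 10, all but *Fosl2* and *Ier2*, the injured libraries were all below the uninjured ones, as for 7.34% of all genes. The median log2 fold change was −1.17 over the 10 genes and −0.02 over all genes tested. As the genes were selected on these counts, nothing is read from these shares.

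In CD44low Tregs the call depended on which injured libraries were used. Over all 6, 3 of 10 were called lower (*Jun*, *Junb*, *Ppp1r15a*; 3.36% of all genes lower, 4.24% higher), and *Jun* alone did not overlap (2.29% of all genes). For the libraries without a second number, 7 were called lower (5.41% of all genes lower, 5.33% higher), namely all but *Jund*, *Fosl2* and *Ier2*, and the same 7 did not overlap (10.8%). For those with a second number only *Jun* was called lower (1.69% lower, 2.59% higher) and only *Jun* did not overlap (5.29%). Median log2 fold changes were −0.92, −1.54 and −0.36 in the 3 comparisons, against 0.01, 0.00 and 0.01 over all genes. The 3 comparisons share the uninjured CD44low libraries.

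**Figure D3:**
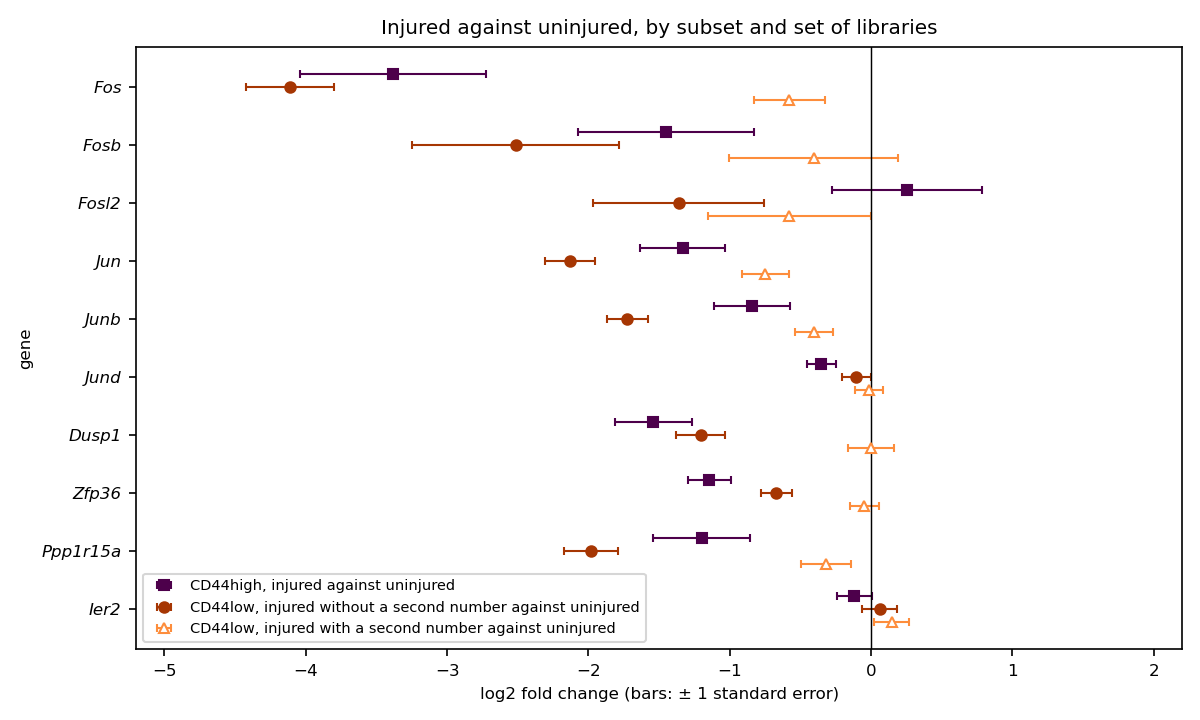
Log2 fold change (horizontal axis; bars are ± 1 SE) of injured against uninjured Tregs for the 10 genes. Squares are CD44high Tregs, circles injured CD44low libraries without a second number and open triangles those with one; for *Fos* these lie at −3.38, −4.11 and −0.58, and for *Ier2* all lie close to 0.

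Set directly against each other, the injured CD44low libraries with a second number had more *Fos* than those without by 11.6-fold (log2 difference 3.53 ± 0.32), more *Ppp1r15a* by 3.17-fold (1.66 ± 0.20), more *Jun* by 2.61-fold (1.38 ± 0.19) and more *Junb* (1.32 ± 0.15). *Dusp1* was 2.30-fold higher (1.20 ± 0.19) and *Zfp36* 1.54-fold higher (0.62 ± 0.12). These 6 genes were called (2.59% of all genes higher, 0.968% lower), and 8 of 10 genes, *Fosb* and *Fosl2* included, were higher without overlap (9.37% of all genes). For *Fosb* and *Fosl2* the lack of overlap in CPM rests on the scaling of few counts. Library 2 had 3 counts of *Fosb* and 8 of *Fosl2*, and library 4_2 had 3 and 6. Labels 1 and 1_2, and 5 and 5_2, share their first number: *Fos* was at 13.5 and 141 CPM in the former pair, and at 14.1 and 232 CPM in the latter. With 3 libraries in each set and none with a second number in the other groups, the sets are a description of these libraries.

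Other measures are given for these sets too. Between the sets edgeR called 2 of the 13 heat shock genes lower with a second number, where 0.968% of all genes were called lower. It called 0 of the tested myeloid, neutrophil, B cell, CD8 and NK cell, or stromal markers. Summed heat shock transcripts (13 genes) ran from 5814 to 6304 CPM without a second number and from 3314 to 5029 CPM with one, against 3225 to 4226 CPM in uninjured and 4757 to 6379 CPM in injured CD44high Tregs. Summed myeloid markers (5 genes) ran from 50.3 to 145 CPM without a second number, from 31.5 to 41.7 CPM with one and from 19.8 to 37.2 CPM in uninjured CD44low Tregs. In CD44high Tregs they ran from 62.6 to 131 CPM when uninjured and 89.7 to 231 CPM when injured. Summed neutrophil markers (3 genes) ran from 0 to 28.9 CPM without a second number, from 0 to 3.30 CPM with one, from 1.06 to 19.1 CPM in injured CD44high Tregs and up to 1.69 CPM in uninjured libraries, with *Ly6g*, a defining marker, at 0 outside injured CD44high Tregs. The 5 B cell markers summed to 116 to 169 CPM without and 95.7 to 121 CPM with a second number, the 4 CD8 and NK cell markers to 47.6 to 60.1 and 53.7 to 57.9 CPM. The 4 stromal markers summed to 179 to 230 CPM without and 135 to 219 CPM with a second number, with *Pdgfra* at 0 in every library. In uninjured Tregs *Col1a1* was called higher and *Pecam1* lower in CD44high than in CD44low Tregs (24.7% and 21.3% of all genes). This sum thus mixes genes of opposite direction and is not a measure of stromal cells alone. The part of all these measures in the levels of the 10 genes was not tested.

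Between the subsets, edgeR's test called *Zfp36* higher and *Jun* and *Ppp1r15a* lower in uninjured CD44high than in uninjured CD44low Tregs (24.7% of all genes higher, 21.3% lower), and the same 3 genes did not overlap (21.9% higher, 18.8% lower). In injured Tregs *Jun*, *Ppp1r15a* and *Ier2* were called lower in CD44high Tregs (17.2% of all genes lower, 20.1% higher), and *Jun* alone did not overlap (9.2%). The injured comparison rests on the libraries used. *Fos* had a log2 difference of −1.40 ± 0.59 over all injured libraries and 1.24 without those with a second number, so its direction turned, and *Junb* went from −0.21 ± 0.24 to 0.60. *Ppp1r15a* went from −1.31 ± 0.32 to −0.26 and was then not called.

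The effect of injury was also compared between the subsets, as the fold change in CD44high minus that in CD44low Tregs. The difference was −1.92 ± 0.81 for *Fos*, −1.06 ± 0.35 for *Dusp1*, −0.82 ± 0.20 for *Zfp36* and −0.05 ± 0.38 for *Jun* on the log2 scale. edgeR called 0 of the 10 genes (0.454% of all genes lower, 0.192% higher), with 4 at an unadjusted p under 0.05, and DESeq2 called *Zfp36*. Without the libraries that carry a second number the values were 0.72 for *Fos*, −0.33 for *Dusp1*, −0.48 for *Zfp36* and 0.80 for *Jun*.

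The 6 genes *Fos*, *Jun*, *Junb*, *Dusp1*, *Zfp36* and *Ppp1r15a* are those called between the sets of injured CD44low libraries. A high r among these 6 genes follows in part from that shared difference. Their r is therefore given as a description, and pairs of all genes were not set beside it. Over the 19 libraries Pearson's r of log2 CPM for the 15 pairs had a median of 0.80 (0.35 to 0.96), the lowest for *Jun* with *Zfp36* and the highest for *Fos* with *Dusp1*. With the means of the 4 groups removed the median was 0.91 (0.82 to 0.96), and with the means of the 5 sets removed it was 0.63 (0.22 to 0.90). Removal of the 4 group means leaves the difference between the sets in, and removal of the 5 means takes it out. *Ier2* had r of 0.01 to 0.35 with these 6 genes, and *Jund* 0.38 to 0.58 over 19 libraries but 0.06 to 0.30 with group means removed. The points share library preparation, and libraries of 1 group differ in depth.

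Outside the 10 genes, those whose log2 CPM was most like the mean of the 10 over 19 libraries were *Rgs2*, a regulator of G protein signalling (r = 0.93), *4931440P22Rik* (0.92), *9530052E02Rik* (0.91), *Irs2*, an insulin receptor substrate (0.90), *Hnrnpd*, which binds AU-rich transcripts (0.89), and *Gdap10* (0.87). With the means of the 4 groups removed they were *Rbm3*, a cold-inducible RNA-binding protein (0.89), *Mirt1* (0.88), *Taf1d* (0.87), *Irs2* (0.87), *Rgs2* (0.86) and *Serinc3* (0.86). This second ranking leaves in the difference between the 2 sets of injured CD44low libraries. By rank (Spearman's rho) *Rbm3* had 0.60 and the others 0.72 to 0.84.

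Related genes were counted from lists written by hand with earlier results of these data known, so their counts are not independent support. Calls came from the quasi-likelihood test of edgeR, with Benjamini-Hochberg adjusted p-values over all genes. Of 40 other immediate-early genes tested, 3 rose and 5 fell after injury in CD44high Tregs, with a list median of −0.23, where 1.06% of all genes were called higher and 1.33% lower. *Cd69*, an early activation antigen, rose (log2 fold change 0.81 ± 0.14, adjusted p = 0.00157), with *Dusp2* (0.47 ± 0.11, adjusted p = 0.0193) and *Myc* (0.45 ± 0.11, adjusted p = 0.0217). *Klf6*, a zinc finger factor, fell from 382 ± 41.7 to 202 ± 4.07 CPM (SD; adjusted p = 0.000137), and the kinase gene *Pim1* fell from 100.3 ± 7.36 to 48.0 ± 10.5 CPM (adjusted p = 0.00631). *Gem*, a small GTPase, fell by 1.07 ± 0.24 on the log2 scale (adjusted p = 0.0171). *Egr1* and *Nr4a1*, which like *Fos* respond to the T cell receptor, were at 197 ± 46.1 and 157 ± 24.6 CPM in uninjured and 269 ± 30.1 and 148 ± 23.6 CPM in injured CD44high Tregs and were not called. These 2 were named after their values were seen.

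In CD44low Tregs 5 of the 40 rose and 9 fell over all 6 injured libraries (4.24% and 3.36% of all genes). Without a second number 4 rose and 13 fell (5.33% and 5.41% of all genes), and with one 5 rose and 1 fell (2.59% and 1.69%). *Cd69* rose in both sets, by 1.15 ± 0.13 (adjusted p = 5.09e-06) and 0.85 ± 0.13 (adjusted p = 0.000616), and *Dusp5* fell in both, by 1.04 ± 0.14 (adjusted p = 0.000107) and 0.77 ± 0.14 (adjusted p = 0.00407). *Sik1*, a CREB-induced kinase, fell from 75.2 ± 13.3 to 15.01 ± 4.73 CPM without a second number (adjusted p = 2.6e-05), and *Trib1* from 54.5 ± 12.5 to 23.5 ± 3.58 CPM (adjusted p = 0.000107). Between the sets 12 of 40 were higher with a second number and 1, *Egr2*, was lower (2.59% and 0.968% of all genes). *Trib1* was higher at 63.4 ± 3.16 against 23.5 ± 3.58 CPM (adjusted p = 0.000133), *Pim1* by 0.88 ± 0.17 (adjusted p = 0.00457) and *Per1* by 1.73 ± 0.34 (adjusted p = 0.00487). *Egr2* was at 50.5 ± 4.86 against 97.8 ± 9.34 CPM (adjusted p = 0.00539). *Cd69* thus rose with injury in the set where *Fos* was low and in the set where *Fos* was near or within the uninjured range.

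**Figure D4:**
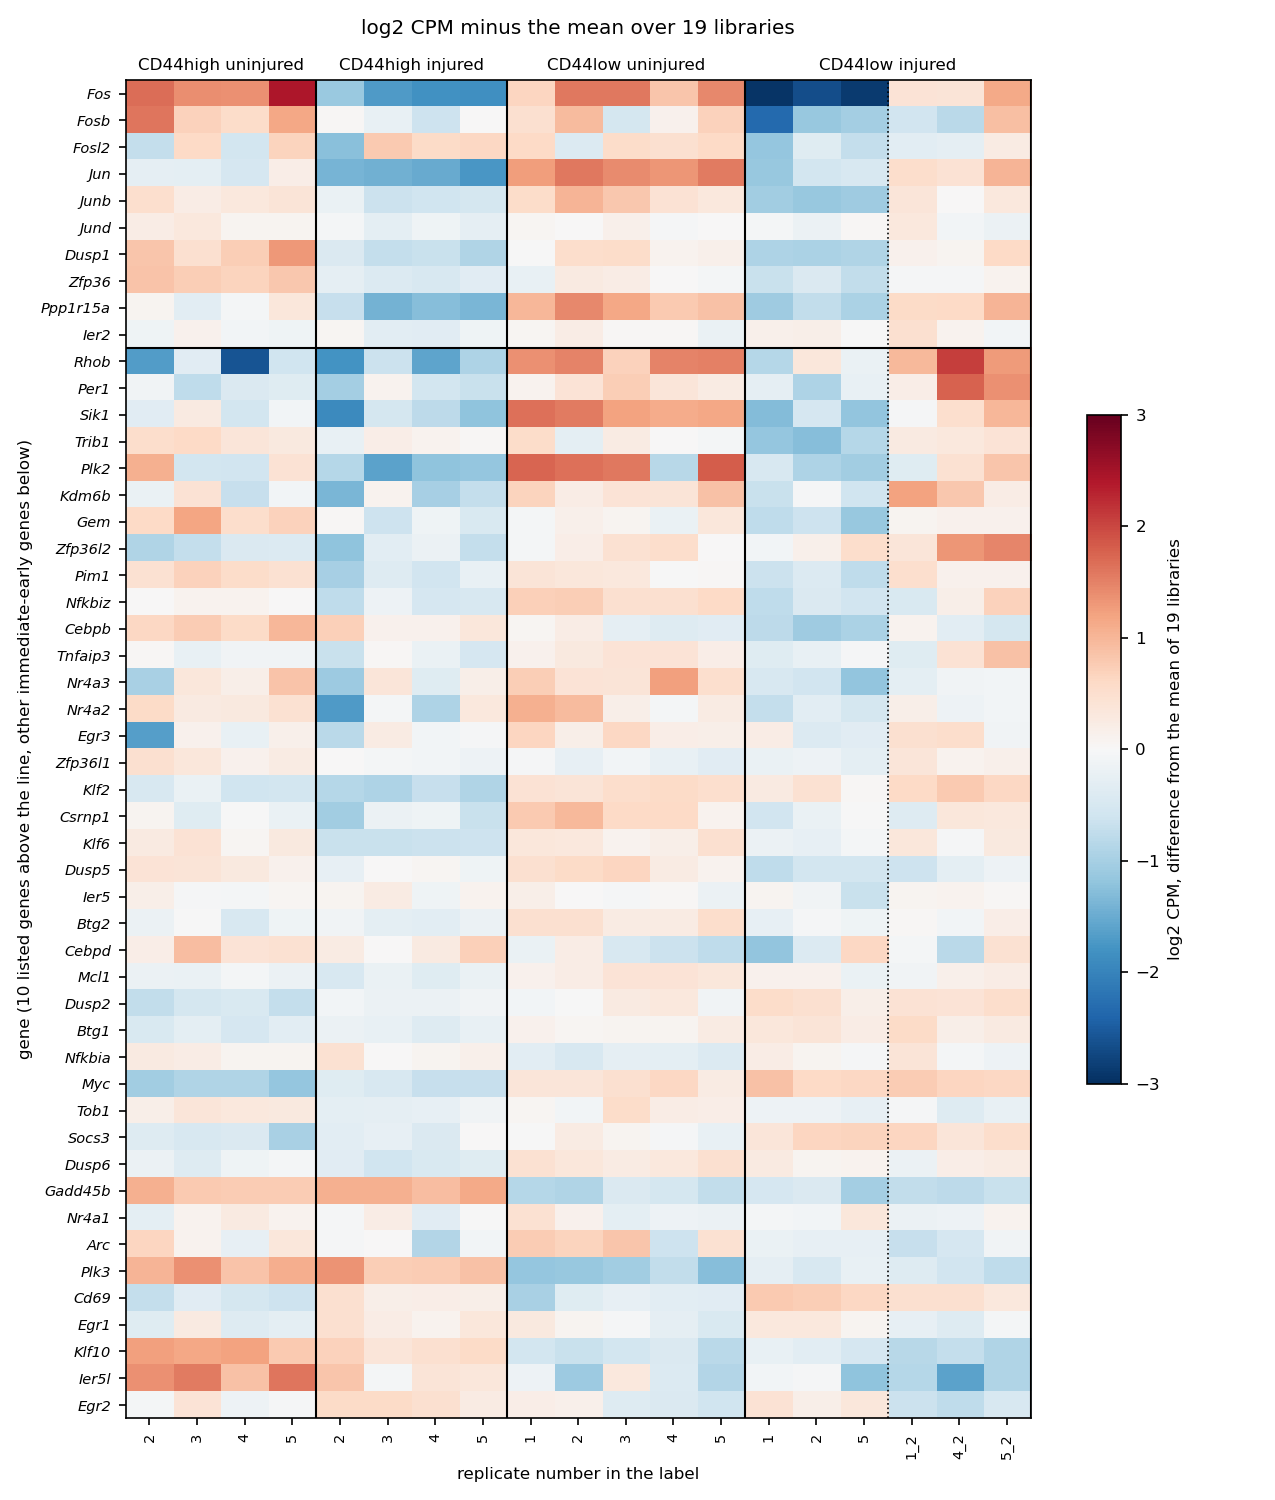
Log2 CPM minus the mean over 19 libraries (colour, from −3 to 3; values beyond are shown at the limit) for the 10 genes above the line and 40 other immediate-early genes below it, in 19 libraries. The other genes are ordered by their difference between the 2 sets of injured CD44low libraries, divided by the dotted line; *Fos* is low in 7 injured libraries, and *Cd69* is high in injured CD44low libraries of both sets.

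Of 9 tested partners of AP-1, 4 were higher in uninjured CD44high than CD44low Tregs and 2 were lower, where 24.7% of all genes were called higher and 21.3% lower. *Batf*, a partner of Jun proteins needed for effector Tregs, had 194 ± 8.44 against 48.8 ± 8.48 CPM (SD; adjusted p = 1.28e-10), and *Maf* had 70.4 ± 4.11 against 8.61 ± 1.95 CPM (adjusted p = 2.54e-10). *Batf* was thus higher in the subset with less *Jun*. With injury in CD44high Tregs edgeR called 0 of the 9 (1 at an unadjusted p under 0.05, and 0 by DESeq2). In injured CD44low Tregs *Batf* rose by 0.62 ± 0.14 (adjusted p = 0.00905), and *Atf7* fell by 0.74 ± 0.16 (adjusted p = 0.00873), which was not called in the set with a second number (adjusted p = 0.0518). *Batf* rose in both sets, by 0.67 ± 0.16 (adjusted p = 0.011) without a second number and 0.56 ± 0.16 (adjusted p = 0.0498) with one.

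The kinases and factors that lie upstream are set against all genes, of which injury changed 1.06% higher and 1.33% lower in CD44high and 4.24% and 3.36% in CD44low Tregs. Of 23 MAP kinase pathway genes, edgeR called 0 in CD44high Tregs (3 at an unadjusted p under 0.05, and 0 by DESeq2) and 2 in CD44low Tregs, where *Map2k3* rose (0.31 ± 0.08, adjusted p = 0.022) and *Nras* fell by 0.39 ± 0.11 (adjusted p = 0.0264). In the set with a second number neither was called (adjusted p = 0.0829 and 0.0776), and without one only *Map2k3* was (adjusted p = 0.0243). Of 12 upstream factors such as *Srf*, *Elk4* and *Creb1*, edgeR called 0 in either subset (2 and 5 at an unadjusted p under 0.05, and 0 by DESeq2). In the injured CD44low libraries without a second number *Crebbp*, a coactivator of CREB, fell from 124 ± 24.9 to 66.3 ± 12.8 CPM (adjusted p = 0.0145), and *Elk4* fell by 0.67 ± 0.19 (adjusted p = 0.0245).

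Of 15 genes of mRNA decay, which include relatives of *Zfp36*, 1 fell in CD44high Tregs and 2 in CD44low Tregs. These were *Tob1* in both (falls of 0.52 ± 0.12 and 0.40 ± 0.11, adjusted p = 0.0221 and 0.0242) and *Cnot6* in CD44low Tregs. *Cnot6* fell in both sets (adjusted p = 0.0129 without and 0.00626 with a second number), and *Tob1* was called in neither (adjusted p = 0.0585 and 0.0687). Of 15 genes of the integrated stress response, in which *Ppp1r15a* acts, 1 rose in CD44high Tregs, and 2 rose and 1 fell in CD44low Tregs. *Ddit4*, a growth inhibitor, rose in both, by 1.13 ± 0.17 (adjusted p = 0.000313) and 1.33 ± 0.14 (adjusted p = 1.28e-05), and in both sets (adjusted p = 3.16e-05 without and 6.63e-05 with a second number). *Ppp1r15b*, the constitutive relative of *Ppp1r15a*, fell from 105 ± 11.1 to 64.9 ± 11.2 CPM in CD44low Tregs (adjusted p = 0.00873), and was called without (adjusted p = 0.01) but not with a second number (adjusted p = 0.0667).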

How the data were processed

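RNA from sorted Tregs was amplified with SMART-Seq v4 and made into libraries with a Swift 2S kit. The submitters' processing notes name bcl2fastq 2.18, STAR 2.5 and the builds mm9 and mm10 without saying which was used for what; the methods name the VIPER workflow. The authors deposited raw counts per gene, not normalized, with replicates kept apart. Groups came from the sample labels, and all 19 columns were mapped.

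The analysis used edgeR 4.0.16 and limma 3.58.1 in R 4.3.3: filtering at a minimum count of 10, TMM factors, 1 mean for each of 4 groups (5 where the injured CD44low group was divided), no covariate, quasi-likelihood tests (two-sided) and Benjamini-Hochberg adjustment over 11464 genes. Log2 CPM used a prior count of 2. DESeq2 1.42.0 was an alternative. The test was also run on simulated data. Plots came from matplotlib 3.10.9 in Python 3.11.15. Counts carry no molecular identifiers, so depth limits precision beyond counting error. The members and lists were chosen with earlier results of these data known. The genes named outside the 10 were up to 3 of smallest p per list, comparison and direction, and the 6 most alike in each of 2 rankings. Alternatives were RLE factors, library totals, no filter, the study's threshold (unadjusted p under 1e-06 and 2-fold), the compared groups alone, a replicate block, summed libraries, the second-number libraries left out and each library left out.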

Additional observations from a re-analysis of the deposited data

Results flagged for a closer look

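Dixon's test at 95% was run on each of the 10 genes in each of the 4 groups of 4 to 6 libraries. It flags about 1 group in 20 by chance, and 4 single values lay far from the rest. *Fos* was at 48.7 CPM in injured CD44high library 2, with the other 3 between 29.1 and 32.4 CPM. *Ppp1r15a* was at 51.7 CPM in the same library, with the others between 31.1 and 34.3 CPM. *Fosb* was at 2.40 CPM in injured CD44low library 5_2, with the others between 0 and 0.690 CPM. *Fosl2* was at 0.945 CPM in uninjured CD44low library 2, with the others between 2.01 and 2.19 CPM. These values of *Fosb* and *Fosl2* rest on 16 and 6 counts, and the injured CD44low group holds both sets of libraries.

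Of the related genes, the effect of injury on *Il7r* differed between the subsets, with a log2 difference of −1.23 ± 0.22 SE (CD44high minus CD44low; quasi-likelihood test of edgeR, Benjamini-Hochberg adjusted p = 0.00417). *Il7r* was also called higher in the injured CD44low libraries with a second number than in those without. The difference between subsets without those libraries is not given here.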

How the results depend on the processing

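Log2 fold changes of the 10 genes moved by more than the spread between replicates in 26 of 2086 repeats. Where the whole injured CD44low group was used, that spread held the difference between its 2 sets, which made the limit lenient. No called value reversed. Several values that were not called turned direction without the second-number libraries, among them *Fos*, *Junb*, *Dusp1* and *Zfp36* between injured subsets. The number of the 10 genes called went from 3 to 0 for uninjured CD44high against CD44low, from 3 to 0 for injured, from 4 to 1 for injury in CD44high, from 3 to 0 for injury in CD44low and from 1 to 0 for the second-number set at the study's threshold. With the compared groups alone it was 6, 7 and 1 for uninjured CD44high against CD44low, injury in CD44high and injury in CD44low. Without the second-number libraries these were 5, 7 and 7. For the difference between subsets in the effect of injury, where 0 were called, the count was 1 with RLE factors, without the filter, with DESeq2 and with summed libraries, and 2 without the second-number libraries. Summed libraries gave 7 for injury in CD44high. The number in each set of injured CD44low libraries, and between the sets, was 7, 1 and 6 with a replicate block. Leaving out 1 library gave 2 to 5 for injured CD44high against CD44low (5 without CD44low injured 1), 1 to 7 for injury in CD44low (1 without CD44low uninjured 2, 7 without CD44low injured 5_2), 0 to 1 for the difference between subsets (1 without CD44high injured 2, CD44low injured 1 or CD44low injured 5), 0 to 2 for the second-number set (0 without 1_2 or 4_2, 2 without 5_2), 3 to 5 for injury in CD44high, and 6 to 7 for the set without a second number. The causes were not tested.

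With the replicate block, 1 of 10 genes was called for injury in CD44low, against 3 without it, and no other count of the 10 genes changed by over 1.5 times. Same-numbered CD44high and CD44low libraries of 1 injury state had correlations of deviations from −0.05 to 0.17, with 4 of 8 over 0.1. Those of different numbers ran from −0.45 to 0.41, with 5 of 36 over 0.1. Pairs are not stated in the sources used here, so the main test did not treat the numbers as pairs. Whether same-numbered libraries came from the same mice is not known. Over all genes the block gave 440 calls for injury in CD44low against 871 without, and 624, 296 and 170 against 1231, 491 and 408 for the sets and their difference.

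Calls over all genes for injury in CD44high (273) were 474 with DESeq2, 601 with the compared groups alone, 476 with summed libraries and 581 without the second-number libraries, and for injury in CD44low (871) 1451, 463 and 1748 with DESeq2, the compared groups alone and without the second-number libraries. The difference between subsets (74) gave 217 with DESeq2 and 314 without the second-number libraries. The second-number set (491) gave 978 with DESeq2 and 108 with the compared groups alone, and the difference of the sets (408) gave 648 and 45, and with library totals alone 255 higher and 158 lower against 297 and 111. Leaving out 1 library gave 152 to 343 calls for injury in CD44high (153, 152, 167, 158 and 170 without injured 2 and 5 and uninjured 2, 3 and 5), 510 to 1893 for injury in CD44low (1893 without injured 5_2; 554, 547 and 510 without injured 1, injured 1_2 and uninjured 1), 447 to 1766 for the set without a second number (447 and 760 without 1 and 2), 148 to 1592 for the other set (148, 174, 1592 and 325 without 1_2, 4_2, 5_2 and uninjured 1), 121 to 652 between the sets (209, 652, 269 and 121 without 1, 1_2, 2 and 4_2) and 43 to 110 between subsets (43 without CD44high injured 5). Low counts limit *Fosb* and *Fosl2*.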

Other observations

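Genes of 2 further lists differed between injured and uninjured Tregs, with Benjamini-Hochberg adjusted p-values from the quasi-likelihood test of edgeR. These lists too were written with earlier results of these data known. Of 9 tested glucocorticoid-responsive genes, 2 rose in CD44high Tregs and 3 in CD44low Tregs, where 1.06% and 4.24% of all genes were called higher. *Tsc22d3*, which encodes GILZ, rose from 578 ± 143 to 1409 ± 280 CPM in CD44low Tregs (SD, n = 5 and 6; adjusted p = 2.61e-05) and from 373 ± 54.3 to 593 ± 54.97 CPM in CD44high Tregs (n = 4 each; adjusted p = 0.0369). *Il7r*, the interleukin-7 receptor, rose by a log2 value of 1.28 ± 0.14 SE in CD44low Tregs (adjusted p = 1.72e-05). *Tsc22d3* and *Il7r* rose in both sets of injured CD44low libraries, with adjusted p of 4.06e-06 and 5.18e-05 without a second number and 0.000447 and 1.53e-07 with one. Between the sets of injured CD44low libraries 4 of the 9 were higher with a second number, with *Per1* (1.73 ± 0.34, adjusted p = 0.00487) and *Fkbp5* (0.95 ± 0.20, adjusted p = 0.00979) leading. The others were *Il7r* and *Klf9*.

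Of 13 heat shock genes, 2 rose and 1 fell in CD44high Tregs, and 4 rose and 3 fell in CD44low Tregs, where 1.06% and 1.33% and then 4.24% and 3.36% of all genes were called higher and lower. Without a second number 4 rose and 2 fell (5.33% and 5.41% of all genes), and with one 0 rose and 2 fell (2.59% and 1.69%; 6 of 13 at an unadjusted p under 0.05 in edgeR, and 5 called by DESeq2). *Hsph1*, a chaperone, rose in both, by 1.21 ± 0.21 (adjusted p = 0.00201) and 0.97 ± 0.18 (adjusted p = 0.00331), but was called only in the CD44low libraries without a second number (adjusted p = 7.72e-05) and not in those with one (adjusted p = 0.0607). *Hspa1a*, an inducible HSP70 gene with near-identical *Hspa1b*, fell in both, from 10.1 ± 8.43 to 0.650 ± 0.416 CPM (adjusted p = 0.0035) and from 13.9 ± 13.8 to 0.307 ± 0.258 CPM (adjusted p = 8.55e-05), and because the copies share sequence, their separate counts are uncertain. *Hspa1a* fell in both sets of injured CD44low libraries, by 5.81 ± 0.99 (adjusted p = 0.000895) without a second number and fell by 5.08 ± 0.94 (adjusted p = 0.00407) with one.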
